A study of Homo sapiens with 24 samples.

Results

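FAM72A and its near-identical human copies FAM72B, FAM72C and FAM72D, together with the uracil glycosylase gene UNG, were followed on 24 Clariom D arrays of 2 B-cell lymphoma lines. Members were the rows of the deposited table that carry 1 of these 5 gene symbols, which gave 5 of 25575 rows, 1 row per symbol. They were chosen by earlier results of DG-75, in which FAM72 rows had been called lower and had moved together. The DG-75 changes under AZD and Ento+AZD and the likeness of the FAM72 rows are therefore given as a description with no test. SU-DHL-4 cells come from a diffuse large B-cell lymphoma. DG-75 is a Burkitt lymphoma line labelled as coming from a peritoneal effusion. Each line was exposed for 72 h to DMSO, to 1 µM of the SYK inhibitor Entospletinib (Ento), to 0.01 µM of the bivalent BET inhibitor AZD5153 (AZD), or to both agents at these doses (Ento+AZD), with 3 replicates in each of the 8 groups. The series calls the replicates biological, and each disease is represented by a single line. Values are log2 intensities, so that a difference of 1 is a doubling of signal, and values of different members are not set against each other because probes can differ in how strongly they bind.

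FAM72A binds UNG2, the nuclear form of the UNG protein, and lowers its amount, and a multi-subunit ubiquitin ligase of the CTLH type has been tied to this loss. UNG removes uracil from DNA. In germinal centre B cells the enzyme AID makes that uracil in antibody genes, and base excision repair and mismatch repair then process the lesions during somatic hypermutation and class switching. FAM72 genes are also known as genes transcribed in proliferating cells. Arrays of this kind measure RNA and hold no information on UNG2 protein. UNG has 1 row here, which does not separate transcripts of UNG2 from those of other forms.

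In RefSeq (GRCh38.p14) each copy lies on chromosome 1 next to a gene of the SRGAP2 family: FAM72A beside SRGAP2, FAM72B beside SRGAP2C, FAM72C beside SRGAP2D and FAM72D beside SRGAP2B. UNG lies on chromosome 12. Promoter windows, from 250 bases before to 50 bases after an annotated start, were matched for FAM72A (4 windows), FAM72C (2), FAM72D (3) and UNG (2). The most downstream window of FAM72A and those of FAM72C and FAM72D cover the same stretch. Over the 269 bases that the FAM72A and FAM72C windows share, 268 were identical, and the FAM72C and FAM72D windows were identical over all 271 shared bases. The 1 difference was A42G from FAM72A to FAM72C, counted from 1 at the 5′ end of the FAM72A window, and the same substitution separated FAM72A from FAM72D. It is shown in capitals in 45 bases of each copy, to show how alike the windows are.
FAM72A: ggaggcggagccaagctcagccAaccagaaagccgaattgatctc
FAM72C: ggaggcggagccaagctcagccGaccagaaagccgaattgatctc
FAM72D: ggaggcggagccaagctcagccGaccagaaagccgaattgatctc

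The whole FAM72A window (chr1:206202790-206203089, minus strand) and the downstream UNG window (chr12:109097922-109098221, plus strand) are shown because both genes moved with cell cycle genes on these arrays, as given below. Capitals mark matches, on either strand, to CCAAT, the box bound by NF-Y, to TTTGAA, the core of the CHR element of cell cycle promoters, to the E2F-type sites TTTGGCGC, TTTCCCGC, TTTGCCGC and TTTCGCGC, and to the E-box CACGTG.
FAM72A: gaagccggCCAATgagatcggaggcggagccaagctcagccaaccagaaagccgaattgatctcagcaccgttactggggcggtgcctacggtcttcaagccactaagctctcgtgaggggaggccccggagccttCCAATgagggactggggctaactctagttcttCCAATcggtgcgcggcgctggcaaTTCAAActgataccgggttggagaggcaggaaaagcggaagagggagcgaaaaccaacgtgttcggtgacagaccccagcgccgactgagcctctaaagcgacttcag
UNG: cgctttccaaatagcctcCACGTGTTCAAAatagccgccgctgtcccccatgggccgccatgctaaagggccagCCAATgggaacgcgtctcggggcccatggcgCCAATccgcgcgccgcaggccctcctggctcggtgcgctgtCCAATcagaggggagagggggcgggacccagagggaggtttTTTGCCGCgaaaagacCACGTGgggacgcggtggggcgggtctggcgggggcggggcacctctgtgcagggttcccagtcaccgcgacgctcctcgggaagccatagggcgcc
Both windows held 3 CCAAT matches and 1 CHR match, and the same number stood in the corresponding windows of FAM72C and FAM72D. These were the windows richest in matches. The other 7 windows of these genes held 0 to 2 CCAAT matches, and none of them held both motifs. The UNG window also held 1 E2F match, TTTGCCGC, and 2 E-box matches, of which 1 lies directly before the CHR match without overlap. Among all 35116 promoter windows of the same length, 34.6% held a CCAAT match and 3.26% held 3 or more. A CHR match was present in 15.2%, both motifs together in 5.9%, an E2F match in 3.31% and an E-box in 7.26%. These shares are per window, whereas the windows above were the richest of 2 to 4 per gene, and those of the FAM72 copies are 1 stretch. The shares therefore do not give how rare such windows are among genes. A match is a run of letters and was not tested as a binding site.

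Medians of the 24 arrays ran from 4.89 to 5.14. The B-cell markers MS4A1, CD79A, CD79B, PAX5, CD22 and BLK lay between the 77.2nd and the 99.8th percentile of all rows in both lines, and the T cell markers CD3D, CD3E, CD3G and CD8A between the 10.7th and the 39.1st, which is a rough check because probes differ between rows. SU-DHL-4 Ento+AZD replicate 2 held the lowest FAM72 mean of its line (7.35), and also the lowest mean of 22 G2 and M phase genes (7.16) and of 21 S phase genes (6.36). In each SU-DHL-4 group replicate 2 held the lowest and replicate 3 the highest FAM72 mean. The Ento+AZD changes and the likeness of the members are also given without SU-DHL-4 Ento+AZD replicate 2. In bulk RNA, fewer cells in a phase of the cycle and less RNA per cell cannot be told apart.

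FAM72A was highest in DG-75 under DMSO and lowest in SU-DHL-4 under Ento+AZD. In SU-DHL-4 the 3 DMSO arrays read 9.65, 9.40 and 10.22 (mean 9.75 ± 0.42, SD, n = 3) and the 3 Ento+AZD arrays read 8.71, 7.01 and 8.87 (8.20 ± 1.03). Ento alone gave 9.50, 8.02 and 9.77, and AZD alone gave 8.59, 8.46 and 8.96. All Ento+AZD and AZD arrays lay below all DMSO arrays, whereas the Ento arrays overlapped with them. In DG-75 the DMSO arrays read 10.32, 10.19 and 10.21 (10.24 ± 0.07) and the Ento arrays 10.11, 10.42 and 9.78 (10.10 ± 0.32). AZD gave 8.50, 9.17 and 8.88 (8.85 ± 0.33), and Ento+AZD gave 8.002, 8.72 and 9.11 (8.61 ± 0.56). DG-75 thus split into DMSO and Ento arrays on one side and the AZD-containing arrays on the other, with no overlap. In the order of the 8 group means, DG-75 DMSO was followed by DG-75 Ento, SU-DHL-4 DMSO, SU-DHL-4 Ento, DG-75 AZD, SU-DHL-4 AZD, DG-75 Ento+AZD and SU-DHL-4 Ento+AZD, and no neighbouring pair differed by more than the larger of its SDs.

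The other copies followed FAM72A closely. FAM72B ran from 10.27 ± 0.05 in DG-75 DMSO to 8.24 ± 0.91 in SU-DHL-4 Ento+AZD, FAM72C from 10.58 ± 0.10 to 8.63 ± 0.84, and FAM72D from 10.31 ± 0.20 to 8.41 ± 0.75. Across the 24 arrays, after each line's mean was taken off, Pearson r between pairs of FAM72 rows lay between 0.983 and 0.997, and after each group's mean was taken off between 0.961 (FAM72A with FAM72C) and 0.996 (FAM72A with FAM72B). Without SU-DHL-4 Ento+AZD replicate 2 the latter range was 0.940 to 0.995. The copies share sequence, arrays and normalisation, so that 4 rows are not 4 independent measurements, and which copy was transcribed cannot be told from these values.

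Group means of UNG were lower in SU-DHL-4 than in any DG-75 group, although single arrays overlapped. In SU-DHL-4 DMSO the arrays read 5.80, 6.19 and 6.37 (6.12 ± 0.29), and in DG-75 DMSO 7.42, 7.12 and 7.19 (7.25 ± 0.16). Under Ento, SU-DHL-4 read 6.28, 4.90 and 6.51, and DG-75 read 7.38, 7.49 and 6.83. Under AZD the values were 5.42, 6.14 and 6.26 in SU-DHL-4 and 5.90, 6.72 and 6.66 in DG-75. Ento+AZD gave 5.27, 4.60 and 5.73 in SU-DHL-4 (5.20 ± 0.57) and 6.47, 5.93 and 6.69 in DG-75 (6.36 ± 0.39). All 4 DG-75 means stood above all 4 SU-DHL-4 means, and the one step between neighbouring means that exceeded both SDs was that from DG-75 Ento (7.23 ± 0.35) to DG-75 AZD (6.42 ± 0.46).

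**Figure D1:**
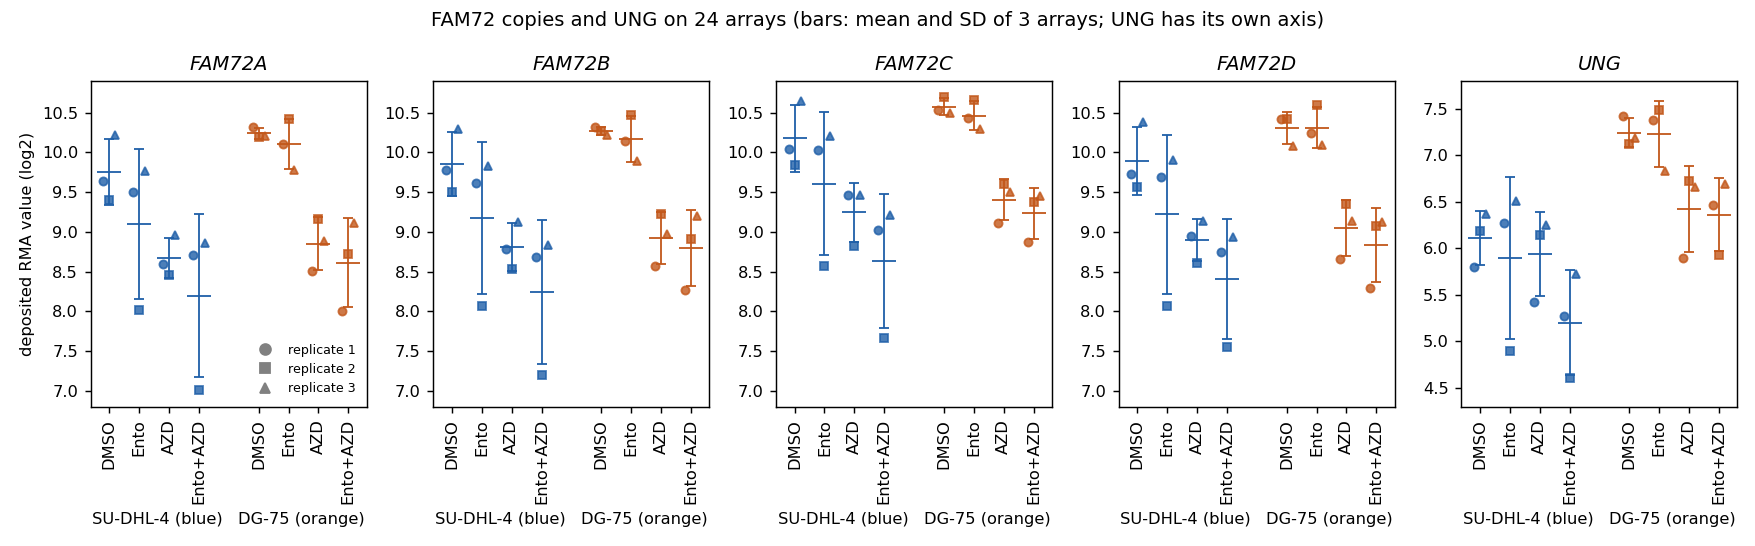
Deposited log2 values of FAM72A, FAM72B, FAM72C, FAM72D and UNG on each of the 24 arrays (points; the symbol gives the replicate number), with the mean and SD of the 3 arrays of each group; the UNG panel has an axis of its own. The FAM72 rows share 1 pattern, with replicate 2 lowest and replicate 3 highest in every SU-DHL-4 group. UNG lies lower in SU-DHL-4 (5.20 to 6.12 in the group means) than in DG-75 (6.36 to 7.25).

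Combined exposure lowered all 4 FAM72 copies in SU-DHL-4. A row counted as called in limma if its adjusted p was below 0.05 and it moved by more than 1 on the log2 scale in either direction. The log2 fold changes were -1.56 for FAM72A (SE 0.279, adjusted p 0.0142), -1.62 for FAM72B (SE 0.253, adjusted p 0.00811), -1.55 for FAM72C (SE 0.230, adjusted p 0.0065) and -1.48 for FAM72D (SE 0.252, adjusted p 0.0120), which is 2.79- to 3.07-fold less signal. All were lower in 3 of 3 same-numbered differences. Of 25575 rows 1.19% were called, and 1.09% were called lower, against the 4 FAM72 copies. UNG gave -0.92 (SE 0.313, adjusted p 0.185), was lower in 3 of 3 differences and did not overlap with DMSO, yet was not called; 16% of all rows lay below DMSO without overlap in this contrast. The median change over all rows was -0.08. The call on the copies rested on the replicate number as a model term: without it, 0 were called, with adjusted p between 0.155 and 0.184. It also rested on single arrays, since 0 were called if either Ento+AZD replicate 2 or DMSO replicate 2 was left out, and 2 if either DMSO replicate 3 or Ento+AZD replicate 3 was.

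The single agents gave smaller differences in SU-DHL-4, of which limma called 0 of 5 members. Under AZD the FAM72 copies gave -0.93 to -1.08 and were lower in 3 of 3 same-numbered differences, with no overlap with DMSO, as 12.9% of all rows did. Their adjusted p lay between 0.134 and 0.158, with 0.18% of rows called. An unadjusted p under 0.05 was found for 4 of the 5 members and for 11.5% of all rows. UNG gave -0.18 (SE 0.313, adjusted p 0.887) and overlapped with DMSO. Under Ento the copies gave -0.57 to -0.68 (adjusted p 0.505 to 0.546), with 0.0508% of rows called, and 4 members and 8.59% of all rows had an unadjusted p under 0.05, while UNG gave -0.22 (SE 0.313, adjusted p 0.891). Ento replicate 2 carried the low values of both genes, FAM72A at 8.02 and UNG at 4.90. Without it the copies gave -0.34 to -0.42 and UNG 0.22, and without DMSO replicate 2 FAM72A gave -0.42 and FAM72C -0.34. For AZD, 2 copies were called without SU-DHL-4 AZD replicate 2.

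For the combination against either single agent in SU-DHL-4, limma called 0 of 5 members. Ento+AZD against Ento gave -0.81 to -0.98 for the copies (adjusted p 0.122 to 0.259) and -0.69 for UNG (adjusted p 0.502), with 0.0821% of rows called, and all 5 members and 9.67% of all rows had an unadjusted p under 0.05. Ento+AZD against AZD gave -0.47 to -0.62 for the copies (adjusted p 0.632 to 0.784) and -0.74 for UNG (adjusted p 0.662), with 0.0274% of rows called, and 3 members and 7.03% of all rows had an unadjusted p under 0.05. The groups overlapped for every member in both contrasts. Against Ento all 5 members were lower in 3 of 3 same-numbered differences, from -1.01 to -0.53 for the copies and from -1.01 to -0.30 for UNG. Against AZD FAM72A was lower in 2 of 3 and the other members in 3 of 3. Over 19 alternatives UNG ran from -1.14 to -0.38 against Ento and from -1.03 to -0.34 against AZD. Without Ento+AZD replicate 2 the copies gave -0.58 to -0.79 against Ento and -0.16 to -0.43 against AZD, and UNG gave -0.52 and -0.56. The departure from additivity, which is what remains of the Ento+AZD change after the changes under Ento and under AZD are taken off, was between -0.04 and 0.18 for the copies (SE 0.325 to 0.395) and -0.52 for UNG (SE 0.443). Without that array the copies gave 0.14 to 0.50 and UNG -0.34. Of all rows 0% were called for it, and 0 of the 5 members reached an unadjusted p under 0.05.

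In DG-75 the FAM72 copies were lower wherever AZD was present. Since these contrasts chose the members, the values are a description. Under AZD the log2 fold changes were -1.39 for FAM72A (SE 0.241), -1.35 for FAM72B (SE 0.213), -1.17 for FAM72C (SE 0.155) and -1.26 for FAM72D (SE 0.205). Under Ento+AZD they were -1.63, -1.48, -1.34 and -1.48 in the same order, and for Ento+AZD against Ento -1.49, -1.38, -1.23 and -1.48. All 4 copies met the threshold in each contrast, which the choice of the members fixed and from which nothing is read; in these contrasts 0.18% (0.164% lower), 0.833% (0.708% lower) and 0.657% (0.598% lower) of rows were called. Under AZD 0 copies met it when any 1 DMSO or AZD array was left out, and under Ento+AZD 0 met it without DG-75 DMSO replicate 1 or Ento+AZD replicate 1. UNG gave -0.82 (SE 0.274), -0.88 (SE 0.274) and -0.87 (SE 0.274), did not overlap with the comparison group in any of the 3 contrasts, where 14.6%, 14% and 13.7% of all rows lay lower without overlap, and did not meet the threshold. Without DG-75 AZD replicate 1 the first value was -0.49, and over 19 alternatives the second ran from -1.08 to -0.59 and the third from -1.24 to -0.52, meeting the threshold in 1 of them. The departure from additivity lay between -0.22 and -0.03 for all 5 members, with 0% of rows called.

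Ento alone gave small differences in DG-75. FAM72A, FAM72B, FAM72C and FAM72D gave -0.14, -0.10, -0.11 and 0.00 and UNG -0.01, each with an SE between 0.155 and 0.274. Ento added to AZD gave -0.13 to -0.24 for the copies and -0.06 for UNG. limma called 0 of 5 members in both comparisons, where 0.00391% and 0% of all rows were called, and 0 members had an unadjusted p under 0.05 in either. The difference between the Ento responses of the lines, SU-DHL-4 minus DG-75, was -0.46 to -0.67 for the copies (SE 0.290 to 0.402) and -0.21 for UNG (SE 0.458). It was not called for any member (adjusted p 0.9995, 0 members at an unadjusted p under 0.05, 0.00782% of rows called).

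**Figure D2:**
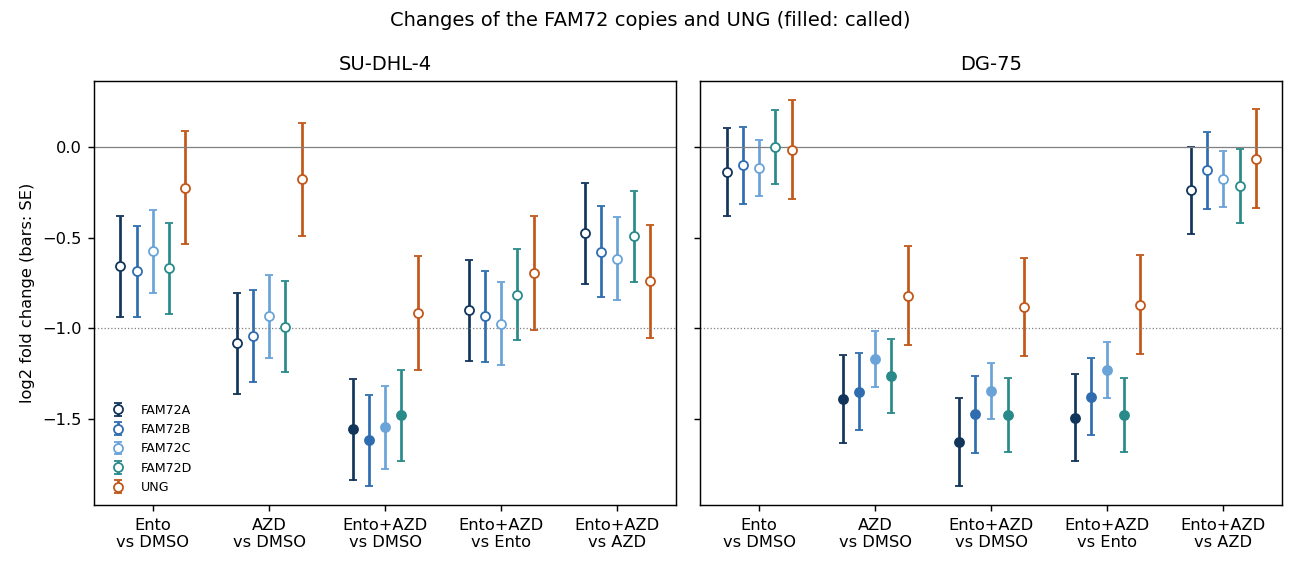
Log2 fold change of each member in the 5 treatment comparisons of each line (points, bars: SE; filled points meet the threshold of adjusted p below 0.05 and a change beyond 1 either way, which the dotted line marks). Filled points are the 4 FAM72 copies under Ento+AZD against DMSO in SU-DHL-4, and, as a description, in the 3 DG-75 contrasts that hold AZD on one side.

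Between the untreated lines UNG differed and the FAM72 copies did not pass the test. UNG was lower in SU-DHL-4 DMSO than in the DG-75 control (log2 fold change -1.13, SE 0.335, adjusted p 0.0215), a 2.19-fold difference in signal. The groups did not overlap, as for 17.2% of all rows in this direction. Of all rows 7.24% were called between the lines and 4.13% were called lower in SU-DHL-4. The copies gave -0.40 to -0.49 (SE 0.333 to 0.387, adjusted p 0.472 to 0.533) and overlapped. Over 17 alternatives the copies ran from -0.17 to -0.78, and 0 were called. Whether UNG differed more than the copies was not tested. The UNG call was lost without SU-DHL-4 DMSO replicate 1 (adjusted p 0.110) or replicate 3 (0.0563) and without DG-75 DMSO replicate 1 (0.106) or replicate 2 (0.0623), within a range of 0.0101 to 0.244 over 17 alternatives. Among the other glycosylases that act on uracil in DNA, SMUG1 was higher in SU-DHL-4 by 0.93 (SE 0.129, adjusted p 1.49e-05), below the fold change minimum, TDG gave -0.43 (adjusted p 0.237) and MBD4 -0.10 (adjusted p 0.825).

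UNG moved with the FAM72 copies from array to array, less closely than the copies with each other. After each line's mean was taken off, r between UNG and the FAM72 mean was 0.856 over 24 arrays, 0.845 within SU-DHL-4 and 0.870 within DG-75, and 0.7625 after each group's mean was taken off. By this measure UNG ranked 567th of 25157 symbols, among the highest 2.25%. Without SU-DHL-4 Ento+AZD replicate 2, an alternative chosen after seeing the data, r was 0.815, or 0.7445 within SU-DHL-4 and 0.7203 after each group's mean was taken off, and the rank was 732nd. The FAM72 mean gave r of 0.959 with the mean of 22 G2 and M phase genes, 0.949 with the mean of 21 S phase genes and 0.610 with the array median. UNG gave 0.803, 0.865 and 0.572 for the same 3 measures. After each group's mean was taken off, the FAM72 mean gave 0.945, 0.922 and 0.135 and UNG 0.669, 0.780 and 0.378. Without that array the FAM72 mean gave 0.955, 0.941 and 0.640 and UNG 0.745, 0.833 and 0.587 after each line's mean was taken off, and 0.919, 0.880 and 0.2003 for the FAM72 mean and 0.603, 0.759 and 0.4285 for UNG after each group's mean was. The part of these phase genes and of the array level in the FAM72 and UNG values was not tested. All points share their arrays and RMA normalisation, and taking off group means leaves differences shared by replicate number. These correlations are descriptions.

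**Figure D3:**
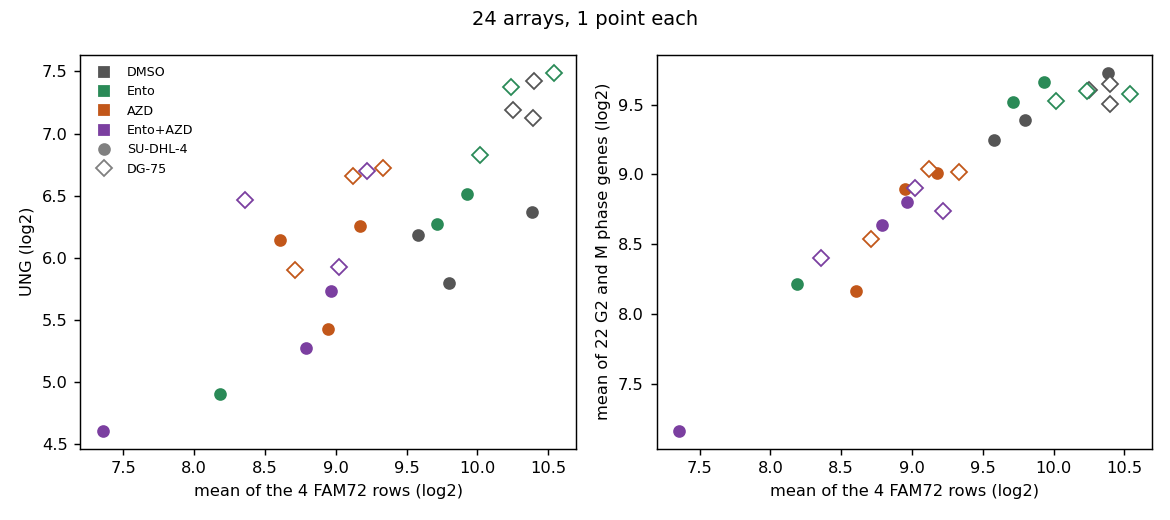
Mean of the 4 FAM72 rows (log2, horizontal axis) against UNG (left) and against the mean of 22 G2 and M phase genes (right), 1 point per array, coloured by treatment, with filled circles for SU-DHL-4 and open diamonds for DG-75. SU-DHL-4 Ento+AZD replicate 2 is lowest on all measures, at 7.35 for FAM72, 4.60 for UNG and 7.16 for the phase genes. UNG follows the FAM72 mean less closely than the mean of the phase genes does, as in DG-75 Ento+AZD replicate 1 (8.36 for FAM72, the lowest of its line, and 6.47 for UNG). UNG is 1 row and the other a mean of 22 genes, which averages out row noise, and the difference was not tested.

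The genes whose array pattern was most like that of the FAM72 mean over the 24 arrays, with each line's mean taken off, included MND1 (r = 0.986), a partner in meiotic recombination, CDKN3 (0.981), a phosphatase that acts on cyclin-dependent kinases, EXOSC8 (0.981), a subunit of the RNA exosome, and FANCI (0.979) of the Fanconi pathway. Their changes under Ento+AZD in SU-DHL-4 were -1.47, -1.31, -0.63 and -1.64 on the log2 scale. Without SU-DHL-4 Ento+AZD replicate 2, MND1, EXOSC8 and CDKN3 stayed among the 5 nearest and FANCI did not. For UNG the nearest were MTFR2 (0.947), a regulator of mitochondrial fission, PPME1 (0.939), a methylesterase of protein phosphatase 2A, GCLM (0.929) of glutathione synthesis, CIP2A (0.929), an inhibitor of the same phosphatase, and TRAP1 (0.927), a mitochondrial chaperone. Their changes in SU-DHL-4 under Ento+AZD were -0.82, -0.31, -1.09, -0.59 and -0.58. Without the same array MTFR2 and PPME1 kept ranks 1 and 2, and GCLM, CIP2A and TRAP1 ranked 7, 6 and 12 (r 0.907 to 0.935 for all 5).

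Genes around uracil repair were read in the same contrast, Ento+AZD against DMSO in SU-DHL-4. Of 4 uracil glycosylases 0 were called: UNG was at -0.92, while SMUG1 gave -0.07, TDG 0.05 and MBD4 0.22. Among 3 genes that keep uracil out of DNA by supplying or clearing nucleotides, TYMS, the thymidylate synthase, fell by 1.67 (SE 0.316, adjusted p 0.0178), and DTYMK and DUT gave -0.94 and -0.83. All 21 base excision repair genes acting after the glycosylase were lower, as were 16374 of all 25575 rows. The list median was -0.39, against an all-row median of -0.08. Of these genes 4 were called, against 1.09% of all rows called lower: POLD3 (-1.33), PCNA (-1.26), RPA3 (-1.14) and RFC5 (-1.11). These 4 are parts of the polymerase, clamp, clamp loader and single-strand binding machinery that also copies DNA in S phase. Of 6 mismatch repair genes 5 were lower and 1 was called: EXO1, an exonuclease, fell by 1.88 (SE 0.418, adjusted p 0.0363). MSH6, which takes part in recognising the mismatch, gave -0.68. Of 8 end joining genes 0 were called, XRCC4 with the largest difference at -0.73.

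Genes tied to FAM72 by position or by protein showed small changes. All 4 SRGAP2 neighbours lay between -0.07 (SRGAP2B) and -0.29 (SRGAP2) under Ento+AZD in SU-DHL-4, with SRGAP2C at -0.11 and SRGAP2D at -0.08, and 0 were called. They are near-identical copies themselves, and their values are uncertain in the same way. Of 12 genes of the CTLH ligase, its ubiquitin-conjugating partner UBE2H included, 0 were called and the median was -0.04, with GID4 at -0.33 and WDR26 at 0.29. The cell cycle lists stood with the copies: all 21 S phase genes (median -1.26) and all 22 G2 and M phase genes (median -1.27) were lower. Of the S phase genes 14 were called, among them CHAF1B (-2.05), GINS2 (-1.73), CDT1 (-1.40) and MCM6 (-1.32). Of the G2 and M phase genes 16 were called, among them CDK1 (-1.60), CCNA2 (-1.57), FOXM1 (-1.57) and AURKA (-1.33), against 1.09% of all rows called lower. TYMS and PCNA stand in more than 1 of these lists. The list counts depended on the settings too. Without the replicate number as a term 1 S phase gene, 0 G2 and M phase genes and 0 repair genes were called, and the counts were 3, 0 and 0 with Ento+AZD replicate 2 of SU-DHL-4 left out and 2, 1 and 0 with its DMSO replicate 2 left out. With DMSO replicate 3 left out they were 6, 9 and 0, and without Ento+AZD replicate 3 the S phase count was 6, the G2 and M phase count 11, the base excision repair count 1 and that of the 3 nucleotide genes 1. When treat asked for changes beyond 1.2-fold, 5 genes of each phase list and 1 base excision repair gene were called, while EXO1 and TYMS were not. After quantile normalisation or subtraction of array medians the EXO1 call was lost, and 3 and 2 base excision repair genes were called.

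In DG-75 under Ento+AZD the same lists are described without a test. Of the S phase genes 6 of 21 met the threshold (median -0.86) and of the G2 and M phase genes 5 of 22 (median -0.89), against a median of -0.07 over all rows, of which 0.708% met it with lower values. These counts were 0 and 0 with DG-75 DMSO replicate 1 or Ento+AZD replicate 1 left out and under limma's treat test, 0 and 1 without DMSO replicate 3, 5 and 2 without DMSO replicate 2, 3 and 4 without Ento+AZD replicate 2, and 3 and 2 after quantile normalisation or subtraction of array medians. RFC3 at -1.02 was the 1 base excision repair gene and EXO1 at -1.53 the 1 mismatch repair gene past it. RFC3 no longer met it after quantile normalisation or subtraction of array medians, under treat, or without any 1 DMSO array or Ento+AZD replicate 1, and EXO1 no longer met it under treat or without DMSO replicate 1 or 3 or Ento+AZD replicate 1 or 2. SMUG1, TDG and MBD4 gave -0.01, -0.17 and 0.29. The SRGAP2 neighbours lay between -0.06 (SRGAP2B) and -0.26 (SRGAP2), and the CTLH genes had a median of 0.13.

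**Figure D4:**
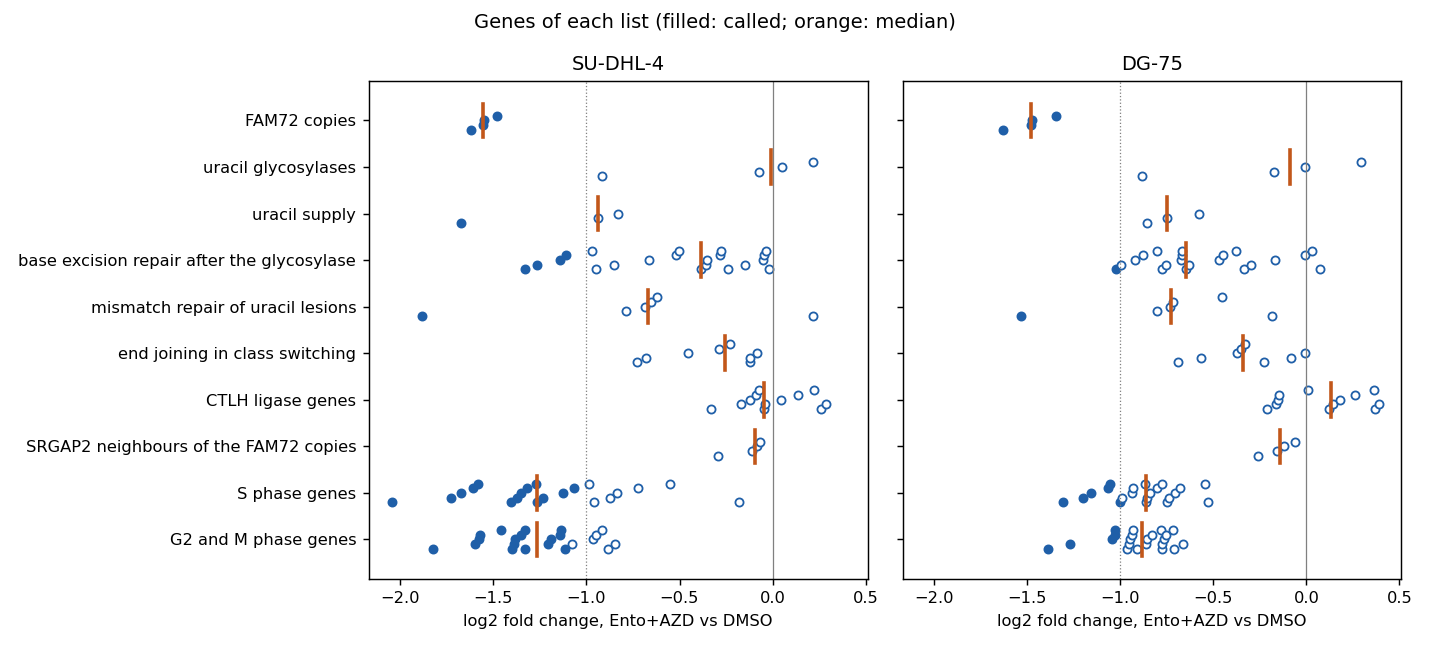
Log2 fold change of every measured gene of each list under Ento+AZD against DMSO (points; filled points meet the threshold; orange bars: list medians), in SU-DHL-4 (left) and DG-75 (right). The 4 FAM72 copies lie at -1.48 to -1.62 in SU-DHL-4, near the S phase (median -1.26) and G2 and M phase genes (median -1.27), and the SRGAP2 neighbours lie near 0.

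Between the untreated lines UBE2H was higher in SU-DHL-4 by 1.46 (SE 0.183, adjusted p 4.18e-06), the 1 of 12 CTLH genes called, against 7.24% of all rows. Of the 22 G2 and M phase genes 0 were called between the lines (median -0.15), and of the 21 S phase genes 2 were called lower in SU-DHL-4, GINS2 (-1.24) and CDC45 (-1.03). The S phase median was -0.47, with 21 of 21 values negative, against 0.013 over all rows, and its part in the UNG difference was not tested. The SRGAP2 neighbours gave -0.40 to -0.52, with adjusted p of 0.0097 (SRGAP2B), 0.0143 (SRGAP2C), 0.0296 (SRGAP2D) and 0.145 (SRGAP2), and all stayed under the fold change minimum.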

How the data were processed

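Total RNA of SU-DHL-4 and DG-75 cells was hybridised to Clariom D arrays. The authors deposited log2 values after RMA normalisation with limma, which corrects background, equalises the arrays and summarises probes, and mapped probes to genes with affycoretools; RMA and limma are also listed in the submitters' processing notes. The annotation version and genome build are not given in the sources used here. How probes shared by the FAM72 copies were assigned cannot be traced. All 25575 rows (25161 symbols) were tested, and 0 per-sample columns were left unused. Groups and replicate numbers came from the labels.

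Each line was fitted with limma 3.58.1 under R 4.3.3 (functions lmFit, contrasts.fit and eBayes), with 4 treatments and the replicate number as a term, because the study's methods name a batch without defining it. The DMSO comparison between lines used all 24 arrays, with the replicate number as a term shared by both lines. The labels do not link same-numbered cultures of different lines. P-values were adjusted by Benjamini-Hochberg over all rows of a comparison. A gene with several rows is represented by its brightest row. Members, lists and motifs were chosen with earlier results of these data known. Named genes were the members, all glycosylases and SRGAP2 neighbours, up to 4 called genes with the smallest p per list or else the largest changes, and the 5 symbols most like the FAM72 mean and UNG; some genes of this rule and of the marker lists are not reported here. The fits were also run on simulated data with independent values and no replicate effect. That run cannot speak to the dependence of the calls on the replicate term. Alternatives are given in the closing section. The number of arrays limits the precision, and no detection value per row was used.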

Additional observations from a re-analysis of the deposited data

How the results depend on the processing

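Few arrays limit these results: calls at 3 arrays a group moved with single arrays and with the replicate term, and the values of the 4 FAM72 copies cannot be separated. Under Ento+AZD in SU-DHL-4, 4 members were called, 3 under treat (FAM72A lost, adjusted p 0.0505), 0 with no replicate block, and 0 to 4 when arrays or replicate numbers were left out (1 without replicate 2 and 0 without replicate 3). The replicate numbers were kept because the methods name a batch. Over all rows, same-numbered deviations correlated between groups at -0.11 to 0.39 in SU-DHL-4 (12 of 18 pairs over 0.1) and -0.35 to 0.34 in DG-75 (7 of 18). Differently numbered pairs were not compared, so these values do not decide whether the numbers pair samples. In SU-DHL-4 the FAM72 mean and the G2 and M phase mean were lowest in replicate 2 and highest in replicate 3 of every group. UNG and the S phase mean did not keep this order, and none of these measures kept an order in DG-75. The block changed no other count of members called. Under AZD in SU-DHL-4 the count was 2 with a prior variance that follows expression and 0 to 2 with arrays left out. In DG-75 under AZD, 4 became 0 with only the groups compared, with quantile normalisation, with array medians subtracted, under treat against a 1.2-fold change and on omission of any array of the contrast or any replicate number (0 to 0). Under Ento+AZD it was 1 under treat and 0 to 4 with arrays left out, and against Ento it was 0 with only the groups compared, 0 under treat and 0 to 5 with arrays left out, reaching 0 without DG-75 Ento replicate 1 or 2 or Ento+AZD replicate 1 or 2. The UNG difference between untreated lines was 0 calls under treat and 0 to 1 with arrays left out. The lowest r between copies was 0.964 as Spearman's rho and 0.977 without SU-DHL-4 Ento+AZD replicate 2. The cause of these changes was not tested.

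Directions turned for 1 or more members in 8 of 14 comparisons, but not for Ento+AZD against DMSO or against Ento in either line, AZD against DMSO in DG-75 or the DMSO lines. With arrays left out, UNG in SU-DHL-4 ran from -0.57 to 0.31 under Ento and from -0.53 to 0.10 under AZD. In DG-75 under Ento, FAM72A ran from -0.32 to 0.11, FAM72B from -0.25 to 0.11, FAM72C from -0.21 to 0.011, FAM72D from -0.14 to 0.22 and UNG from -0.20 to 0.27, and UNG was 0.0048 with array medians subtracted. Over all alternatives, FAM72A ran from -0.77 to 0.01 for Ento+AZD against AZD in SU-DHL-4 and from -0.82 to 0.02 for the difference of the Ento responses, in which UNG ran from -0.57 to 0.51. For Ento+AZD against AZD in DG-75, FAM72A reached 0.02, FAM72B 0.08 and UNG 0.30. The departure from additivity turned for 4 members in each line. Over all rows, the Ento+AZD contrast of SU-DHL-4 had 304 calls, against 45 with no replicate block, 133 under treat, and with 1 array left out 56 (DMSO replicate 2), 83 (Ento+AZD replicate 2), 166 (DMSO replicate 3) or 162 (Ento+AZD replicate 3). DG-75 had 213, against 14 under treat, and with 1 array left out 0 (replicate 1 of DMSO or of Ento+AZD), 82 (DMSO replicate 2), 47 (DMSO replicate 3) or 69 (Ento+AZD replicate 2).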
